A study of Homo sapiens with 4 samples.

Results

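A set of 10 genes that pathologists and tumor biologists use to tell ovarian from gastrointestinal epithelium was followed in OVCAR5 cells, an established human cancer cell line. Of these, 5 are ovarian or Müllerian markers (PAX8, WT1, MUC16, MSLN and WFDC2) and 5 are gastrointestinal or epithelial markers (CDX2, VIL1, CDH17, CEACAM6 and EPCAM). The rule took their rows by symbol and used no count. All 10 were found among the 56655 symbols in each count table. In the GENCODE annotation of hg38, the ovarian markers are at chromosome 2, 113215997 to 113278921 (PAX8), chromosome 11, 32387775 to 32435564 (WT1), chromosome 19, 8848844 to 9010390 (MUC16), chromosome 16, 760734 to 768865 (MSLN) and chromosome 20, 45469753 to 45481532 (WFDC2). The gastrointestinal markers are at chromosome 13, 27960918 to 27969315 (CDX2), chromosome 2, 218419121 to 218453295 (VIL1), chromosome 8 (CDH17), chromosome 19, 41750977 to 41772211 (CEACAM6) and chromosome 2, 47345158 to 47387601 (EPCAM). The labels describe OVCAR-5 as an ovarian cancer cell of high grade serous type that came from ascites, the fluid that collects in the abdomen. One group carried a nontargeting short hairpin RNA in the pLKO.1-puro vector (shCtrl, n = 2 libraries) and the other a hairpin against the forkhead transcription factor gene FOXK2 (shFOXK2, n = 2 libraries). According to the study's methods, both hairpins were delivered stably by lentivirus and the transduced cells were selected with puromycin, so both groups share transduction and drug selection. RNA came from a single cell line with 1 hairpin sequence in each group. The study's statistics section counts its replicates as biological, but the labels do not say how the libraries of a group were separated, so the p-values measure only the spread between these libraries. The comparisons asked which lineage markers OVCAR5 cells carried under the control hairpin, and which of them differed under the FOXK2 hairpin.

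Epithelia often keep the transcription factors that specified them in the embryo. PAX8 and WT1 mark epithelium derived from the Müllerian duct and its serous tumors, whereas CDX2 specifies intestinal epithelium and is kept by many gastrointestinal cancers. The other markers are products of differentiated cells: MUC16 carries the CA125 epitope, WFDC2 encodes the secreted protein HE4, MSLN encodes mesothelin, VIL1 encodes the microvillus protein villin, and CDH17, CEACAM6 and EPCAM encode adhesion molecules. EPCAM is found on most carcinomas, ovarian ones included, and MSLN also on mesothelium and on pancreatic cancers. The tissue of origin of OVCAR5 has been debated in the field, and the values below describe marker transcripts only.

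The libraries held between 14284005 and 21950873 counts. More genes had a count in shFOXK2 (26780 and 30717) than in shCtrl (25682 and 23724), and mitochondrial genes took 9.58% and 8.6% of counts against 6.71% and 8.87%. The part of these differences in the results below was not tested. Values are CPM, which are counts at one common library size after TMM scaling, and levels of different genes are compared only as CPM per kilobase of the gene's transcript (CPM per kb). A floor of 3 counts stood at 0.134 to 0.211 CPM and covers counting error alone. FOXK2 itself had 1796 and 1499 counts under the control hairpin and 1086 and 1084 under its own, or 78.2% of the shCtrl CPM. The shFOXK2 libraries were both lower than the shCtrl libraries, but the difference did not pass the test (log2 fold change -0.36, SE 0.25, adjusted p = 0.257, edgeR quasi-likelihood test). With an offset for the A content of the transcript, the log2 fold change was -0.03. By other measures, quantitative PCR and Western blot, the study reported lower FOXK2 mRNA and protein in OVCAR5 cells with its FOXK2 hairpins. The labels do not say whether those cultures were the ones sequenced.

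The 250 bases that precede the RefSeq start site (GRCh38.p14, 5′ to 3′ on the gene's strand) are printed here for 3 markers on which the results turn. They show the promoter of WFDC2, the most abundant marker in shCtrl, and those of PAX8 and CDX2, the transcription factors of each lineage that were detected. The windows are chr20:45469503-45469752 on the plus strand, chr2:113278922-113279171 on the minus strand and chr13:27969316-27969565 on the minus strand. Capitals mark matches to the forkhead core TGTTTAC or the caudal-type core TTTATNG, read on either strand.
WFDC2: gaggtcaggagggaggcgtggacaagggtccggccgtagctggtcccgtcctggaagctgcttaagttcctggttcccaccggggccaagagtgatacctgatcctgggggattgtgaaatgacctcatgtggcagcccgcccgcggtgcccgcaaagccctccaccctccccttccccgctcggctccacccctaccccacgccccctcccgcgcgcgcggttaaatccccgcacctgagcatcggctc
PAX8: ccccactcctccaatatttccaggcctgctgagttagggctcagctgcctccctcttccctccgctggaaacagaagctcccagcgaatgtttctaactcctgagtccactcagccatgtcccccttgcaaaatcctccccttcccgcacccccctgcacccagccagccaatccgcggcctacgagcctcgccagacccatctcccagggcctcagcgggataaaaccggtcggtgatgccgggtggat
CDX2: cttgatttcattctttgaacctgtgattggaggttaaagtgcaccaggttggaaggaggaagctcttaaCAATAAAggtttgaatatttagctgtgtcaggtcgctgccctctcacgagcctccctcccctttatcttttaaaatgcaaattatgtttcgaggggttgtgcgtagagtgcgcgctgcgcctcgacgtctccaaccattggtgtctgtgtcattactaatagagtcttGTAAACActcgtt
The CDX2 window held 1 match to the forkhead core, read as GTAAACA, that began at position -13 relative to the start, and 1 match to the caudal-type core that began at -181. The WFDC2 and PAX8 windows held no match to either. Among 35116 promoter windows of the same length, 2.98% held the forkhead core and 8.93% the caudal-type core. The WFDC2 window was 67.2% G and C, the PAX8 window 61.6% and the CDX2 window 45.2%, beside a median of 58% over all windows. The letters were matched only. The study sequenced chromatin bound by FOXK2 in OVCAR5 cells, but those data were not used here, so binding at these windows was not read.

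In shCtrl, markers of both lineages were present, and neither list was complete. WFDC2 had the highest level, 190 CPM per kb, and EPCAM the next, 64.5 CPM per kb. With the merged length of all exons in place of the canonical transcript, they kept this order at 80.7 and 41.1 CPM per kb. By the canonical length they lay above 97.6% and 91.2% of the 13675 protein-coding genes with at least 3 counts in both shCtrl libraries. Every other marker lay below the median of those genes.

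The transcription factors of both lineages were found together. PAX8 stood at 4.51 CPM per kb and CDX2 at 3.43 CPM per kb, at percentiles 41.7 and 36.5. The level of CDX2 was 0.771 and 0.751 times that of PAX8 in the shCtrl libraries. The PAX8 range of 3.88 to 5.15 CPM per kb only just cleared the CDX2 range of 2.99 to 3.87. When the merged length of all exons replaced the length of the canonical transcript, PAX8 stood at 2.48 CPM per kb and fell below CDX2, so the order of this pair depends on the transcript assumed.

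MSLN followed at 1.502 CPM per kb, CEACAM6 at 0.453, MUC16 at 0.306 and CDH17 at 0.20. Down to CDH17, the shCtrl libraries of neighboring markers did not overlap. VIL1 (0.0316 CPM per kb) and WT1 (0.0251) closed the order and overlapped each other. The plot of levels by library shows that the 2 lineages alternate along this order.

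**Figure D1:**
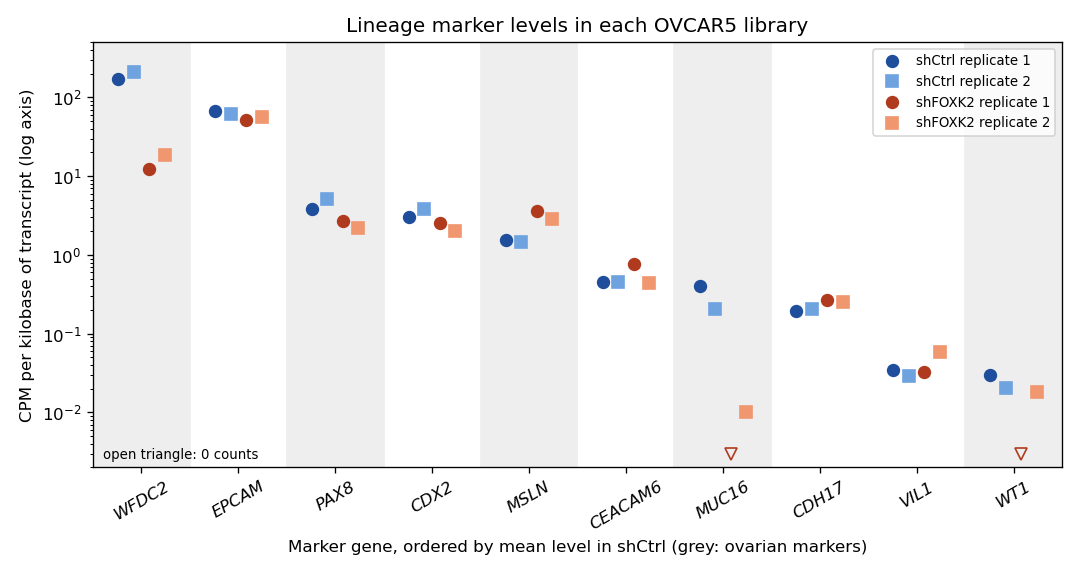
Level of each marker in each library, in CPM per kilobase of transcript on a log axis, ordered by the shCtrl mean; grey columns are ovarian markers and open triangles at the bottom are libraries with 0 counts. WFDC2 (190 CPM per kb) and EPCAM (64.5 CPM per kb) stand above the other 8 markers in shCtrl, and the largest distance between shCtrl and shFOXK2 points is that of MUC16.

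WT1, which pathologists read as positive in serous carcinoma, was at the limit of detection. It was counted 2 and 1 times with shCtrl and 0 and 1 times with shFOXK2. All 4 values lie below the floor of 3 counts, and WT1 did not enter the test. No difference in WT1 was detectable at this depth.

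WFDC2 had 2163 and 1902 counts in the shCtrl libraries against 99 and 194 in those of shFOXK2. The groups were far apart, at 108 ± 15.2 CPM and 8.81 ± 2.62 CPM (SD, n = 2 each). WFDC2 fell by 3.61 on the log2 scale (SE 0.30, 95% interval -4.26 to -2.95, adjusted p = 2.45e-06, edgeR quasi-likelihood test). The shFOXK2 mean was 8.18% of the shCtrl mean, so the marker that led the order in shCtrl ranked below EPCAM in shFOXK2. In bulk RNA, fewer cells that express a gene and less of its RNA in each cell cannot be told apart.

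MUC16 was counted 397 and 145 times with shCtrl and 0 and 8 times with shFOXK2. Both shFOXK2 libraries were near the floor, and relative to their mean the shCtrl libraries differed from each other by more than those of the other tested ovarian markers (13.4 ± 6.2 CPM, SD, n = 2). MUC16 passed the test as lower (adjusted p = 2.45e-05, edgeR quasi-likelihood test). Against the floor of 3 counts, it was at least 63.6-fold lower in shFOXK2 replicate 1 than the shCtrl mean, and the shFOXK2 mean was 1.64% of the shCtrl mean. The fitted log2 fold change of -5.76 depends on a prior count and is no bound. MUC16 is a membrane mucin with a canonical transcript of 43816 bases, so its modest counts correspond to a low level per kilobase.

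PAX8 had 351 and 335 counts in the shCtrl libraries against 156 and 162 in those of shFOXK2. The groups did not overlap, at 18.3 ± 3.63 CPM and 9.93 ± 1.46 CPM (SD, n = 2 each). PAX8 passed the test as lower, with a log2 fold change of -0.88 (SE 0.30, 95% interval -1.52 to -0.24, adjusted p = 0.0263, edgeR quasi-likelihood test). The call was lost with an offset for GC content (-0.56, adjusted p = 0.0525) or for the A content of the transcript (-0.52, adjusted p = 0.0789), and without shCtrl replicate 2 (adjusted p = 0.145) or shFOXK2 replicate 2 (adjusted p = 0.106), all by edgeR. PAX8 also shares 1651 exon bases with the antisense gene PAX8-AS1, which was counted 1789 and 1372 times with shCtrl and 1171 and 1245 times with shFOXK2 (log2 fold change -0.14, adjusted p = 0.669, edgeR). Since the strand setting of the counting was not stated, reads of the shared bases cannot be assigned to one of them with certainty.

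MSLN went the other way. It had 75 and 52 counts in the shCtrl libraries against 112 and 116 in those of shFOXK2, and both shFOXK2 libraries lay above both shCtrl libraries. This was 3.30 ± 0.0866 CPM against 7.12 ± 1.06 CPM (SD, n = 2 each), a rise of 1.10 on the log2 scale (SE 0.34, 95% interval 0.38 to 1.83, adjusted p = 0.0151, edgeR quasi-likelihood test). The call was lost without shCtrl replicate 1 (adjusted p = 0.0649) or without shCtrl replicate 2 (adjusted p = 0.0711), by the same test. MUC16 and mesothelin bind each other at the cell surface, and here the transcript of one was lower and that of the other higher.

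Of the 4 gastrointestinal markers that could be tested, 0 passed in either direction with edgeR and 0 with DESeq2, and 0 had an unadjusted p under 0.05 with edgeR. Over all 16417 tested genes, 48.4% passed with edgeR, and 4 genes are few to set beside that share. EPCAM was counted 2350 and 1515 times with shCtrl and 1142 and 1586 times with shFOXK2. Scaled for depth, this was 99.9 ± 7.75 CPM and 83.7 ± 4.84 CPM (SD, n = 2 each), without overlap. The log2 fold change was -0.25 with a 95% interval from -0.76 to 0.25 (adjusted p = 0.393, edgeR quasi-likelihood test), which leaves out a fall of the size seen for WFDC2.

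CDX2, the intestinal homeobox factor, had 230 and 214 counts in the shCtrl libraries against 126 and 125 in those of shFOXK2. Both shFOXK2 libraries were below both shCtrl libraries (11.8 ± 2.14 CPM against 7.86 ± 1.41 CPM, SD, n = 2 each). The log2 fold change was -0.59 (95% interval -1.26 to 0.09, adjusted p = 0.138, edgeR quasi-likelihood test). With the offsets for GC and A content the estimates were -0.23 and -0.25. The interval without an offset contains the estimate for PAX8, and the difference between these genes was not tested.

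CEACAM6 was counted 26 and 19 times with shCtrl and 28 and 21 times with shFOXK2, and its groups overlapped in CPM. CDH17, the liver-intestine cadherin, had 16 and 12 counts in the shCtrl libraries against 14 and 17 in those of shFOXK2. Both had a log2 fold change of 0.39, with 95% intervals from -0.55 to 1.33 (adjusted p = 0.486) and from -0.59 to 1.37 (adjusted p = 0.508, edgeR quasi-likelihood test). Both intervals are wide and take in a rise of 1 log2 unit. Without shFOXK2 replicate 1, the CEACAM6 estimate was -0.025. VIL1 was counted 5 and 3 times with shCtrl and 3 and 7 times with shFOXK2, and was too low to be tested. VIL1 shares 3045 exon bases with USP37 on the opposite strand, so even these counts may not belong to it.

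**Figure D2:**
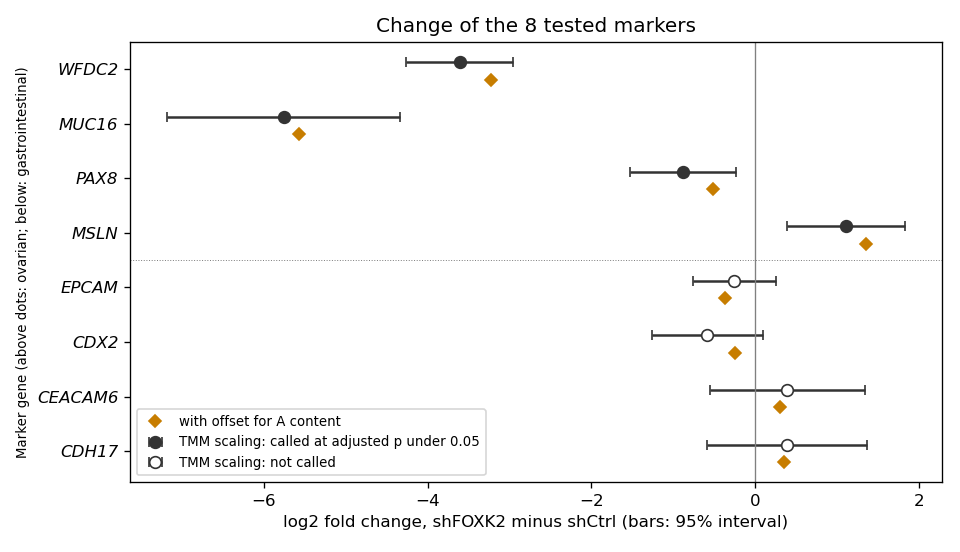
Log2 fold change of each of the 8 tested markers, shFOXK2 minus shCtrl, with its 95% interval; filled circles passed an adjusted p of 0.05, open circles did not, and diamonds give the estimate with an offset for A content. The intervals of the 4 ovarian markers lie clear of 0, with MSLN on the higher side, whereas those of the 4 gastrointestinal markers include 0. Of all tested genes, 48.4% passed, and the difference between the lineages was not tested.

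Across the tested markers, 4 of 8 were called, 3 lower (MUC16, WFDC2 and PAX8) and 1 higher (MSLN). Of all 16417 tested genes, 48.4% were called, 25.7% as higher and 22.7% as lower in shFOXK2, so the number of markers called is near the share among all genes. The groups did not overlap in CPM for 7 of the 8 tested markers, beside 75.4% of all tested genes. Whether ovarian and gastrointestinal markers differ in how they changed was not tested.

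The summed level of the 5 ovarian markers was 177 and 216 CPM per kb in shCtrl and 18.6 and 23.9 CPM per kb in shFOXK2. The summed level of the 5 gastrointestinal markers was 71.8 and 65.6 CPM per kb in shCtrl and 55.5 and 59.1 CPM per kb in shFOXK2. Accordingly the ovarian sum was 2.46 and 3.29 times the gastrointestinal sum in shCtrl, and 0.334 and 0.405 times in shFOXK2. From the mean shCtrl levels the ratio was 2.86, and 1.88 with the merged exon length. These sums follow 1 gene each. WFDC2 made up 96.7% and 96.8% of the ovarian sum in shCtrl and 66.1% and 78.6% in shFOXK2, and EPCAM made up between 93.1% and 95.3% of the gastrointestinal sum. Without WFDC2, the ovarian sum was 5.85 and 6.85 CPM per kb in shCtrl and 6.29 and 5.12 CPM per kb in shFOXK2, which overlap. Without EPCAM, the gastrointestinal sum was 3.67 and 4.56 against 3.63 and 2.75 CPM per kb.

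In shFOXK2 the order of levels was EPCAM (54.1 CPM per kb), WFDC2 (15.5), MSLN (3.24), PAX8 (2.45), CDX2 (2.28), CEACAM6 (0.602), CDH17 (0.261), VIL1 (0.0458), WT1 (0.00906) and MUC16 (0.00502). PAX8 and CDX2 overlapped there, as did WT1 and MUC16. MUC16 had thus moved from the 7th to the 10th place and MSLN from the 5th to the 3rd.

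Further markers of each lineage gave a similarly mixed picture of the shCtrl cells. Of 18 other Müllerian and serous markers, 12 had at least 3 counts in both shCtrl libraries, led by the adhesion molecule BCAM (38.6 CPM per kb), the kallikrein KLK11 (19.6), the folate receptor FOLR1 (9.34) and MEIS1 (9.17). Of the 18, 5 had 0 counts in both shCtrl libraries: SOX17 and EMX2, transcription factors of the Müllerian tract, the progesterone receptor gene PGR, KLK7 and KLK8. The estrogen receptor gene ESR1 had 1 and 2 counts. These 6 genes were named after their values were seen. Other transcription factor genes of the list were detected in shCtrl, and were likewise named after their values were seen. They were HOXA11 (167 and 119 counts), PAX2 (54 and 40), HOXA10 (36 and 27) and HOXA9 (29 and 22).

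Of 32 other gastrointestinal markers, 16 had at least 3 counts in both shCtrl libraries and 7 had 0 in both. They were led by the intestinal keratin KRT20, at 123 CPM per kb above 95.8% of detected coding genes, followed by AGR2 (12.7) and GATA6 (11.3). The defining intestinal genes CDX1, ISX, TFF3 and SI were among those at 0 in shCtrl, a choice made after their values were seen. The summed level of the gastrointestinal list was 174 and 182 CPM per kb in shCtrl, and that of the Müllerian list 80.3 and 89.9 CPM per kb, with lists of unequal length and sums that follow their leading genes.

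In shFOXK2, 12 of the 18 Müllerian and serous markers could be tested, of which 4 were lower and 1 was higher (median log2 fold change -0.17, beside 0.04 over all tested genes). Among all tested genes, 22.7% were lower and 25.7% higher. KLK10, a secreted kallikrein, had 93 and 72 counts in the shCtrl libraries against 3 and 11 in those of shFOXK2, and fell by 3.33 on the log2 scale (SE 0.49, adjusted p = 0.000132, edgeR quasi-likelihood test). FOLR1 had 175 and 153 counts against 41 and 65 and fell by 1.42 (SE 0.34, adjusted p = 0.00368, edgeR). KLK6 had 26 and 26 counts against 3 and 13 and fell by 1.50 (adjusted p = 0.0359, edgeR). This call held in only 3 of 9 other settings that kept all 4 libraries. DESeq2 did not make it (adjusted p = 0.144). With edgeR it was lost with library size alone (adjusted p = 0.066), the GC content offset (adjusted p = 0.0994) or the A content offset (adjusted p = 0.111), among others. The KLK6 estimate was -1.26 without shCtrl replicate 2 and -0.94 without shFOXK2 replicate 1. Without shFOXK2 replicate 2 the KLK6 estimate was -2.70. MECOM, a zinc finger transcription factor gene, had 75 and 37 counts against 109 and 177 and rose by 1.61 (SE 0.35, adjusted p = 0.00217, edgeR), or by 1.00 with the A content offset (adjusted p = 0.0167). The number lower was 2 of 12 with DESeq2, with the GC content offset, with the A content offset or without shCtrl replicate 2.

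Of the 32 gastrointestinal markers, 15 could be tested, with 4 lower and 5 higher (median log2 fold change 0.26), beside 22.7% lower and 25.7% higher among all tested genes. The intestinal mucin gene MUC2 was counted 42 and 34 times with shCtrl and 2 and 4 times with shFOXK2, a fall of 3.39 on the log2 scale (SE 0.55, adjusted p = 0.000263, edgeR quasi-likelihood test). The gastric mucin gene MUC5AC went the other way, with 1448 and 855 counts against 3599 and 6130, a rise of 2.32 (SE 0.26, adjusted p = 1.81e-05, edgeR). Mucin genes share repeats, so the share of reads counted for each is uncertain. LGALS4, which encodes an intestinal galectin, had 3 and 1 counts against 15 and 16, too few in shCtrl to give a fold (adjusted p = 0.00143, edgeR).

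GATA6, a factor of endoderm, had 872 and 691 counts in the shCtrl libraries against 273 and 354 in those of shFOXK2, and fell by 1.09 on the log2 scale (SE 0.26, adjusted p = 0.00361, edgeR). KRT20 had 4676 and 3762 counts against 1816 and 2685, and fell by 0.69 (SE 0.23, adjusted p = 0.0243, edgeR). The KRT20 call was lost with a replicate block (adjusted p = 0.0597), without shCtrl replicate 2 (adjusted p = 0.0731) or without shFOXK2 replicate 1 (adjusted p = 0.145), and with the A content offset KRT20 fell by 1.51 (adjusted p = 0.00141, edgeR). TSPAN8 had 118 and 54 counts against 3 and 37 and fell by 1.88 (adjusted p = 0.0191, edgeR), a call lost without shCtrl replicate 1 (adjusted p = 0.061) or with scaling by library size alone (adjusted p = 0.0679). Without shFOXK2 replicate 1 or 2 the TSPAN8 estimate was -1.10 or -4.36. AGR2 had 522 and 316 counts against 211 and 738 and was not called (log2 fold change 0.36, adjusted p = 0.45, edgeR). AGR2 passed as higher without shFOXK2 replicate 1 (0.91, adjusted p = 0.0307) and as lower with the A content offset and a replicate block (-0.67, adjusted p = 0.0133), so its direction turned with the setting. With the A content offset, 3 of the 15 genes were higher and 4 lower.

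EPCAM was compared with other epithelial genes. Of 16 general epithelial markers, 15 could be tested, of which 7 were lower and 1 was higher (median log2 fold change -0.75). The shares among all tested genes were 22.7% lower and 25.7% higher. The keratins KRT8, KRT18, KRT19 and KRT7 had the highest levels in shCtrl, from 351 to 1314 CPM per kb, and none of the 4 was called (adjusted p from 0.13 to 0.651, edgeR), although KRT7 and KRT18 passed as higher with the A content offset (adjusted p = 0.036 and 0.0492) and KRT19 as lower without a filter (adjusted p = 0.0434) or without shCtrl replicate 1 (adjusted p = 0.0314). CDH1, which encodes the adhesion molecule E-cadherin, was counted 459 and 260 times with shCtrl and 13 and 24 times with shFOXK2, and fell by 4.02 on the log2 scale (SE 0.37, adjusted p = 5.12e-06, edgeR quasi-likelihood test). The protease gene ST14 fell by 3.12 (SE 0.38, adjusted p = 3.37e-05, edgeR). MAL2, which encodes a transport protein of polarized epithelium, rose by 1.61 (SE 0.28, adjusted p = 0.000438, edgeR).

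**Figure D3:**
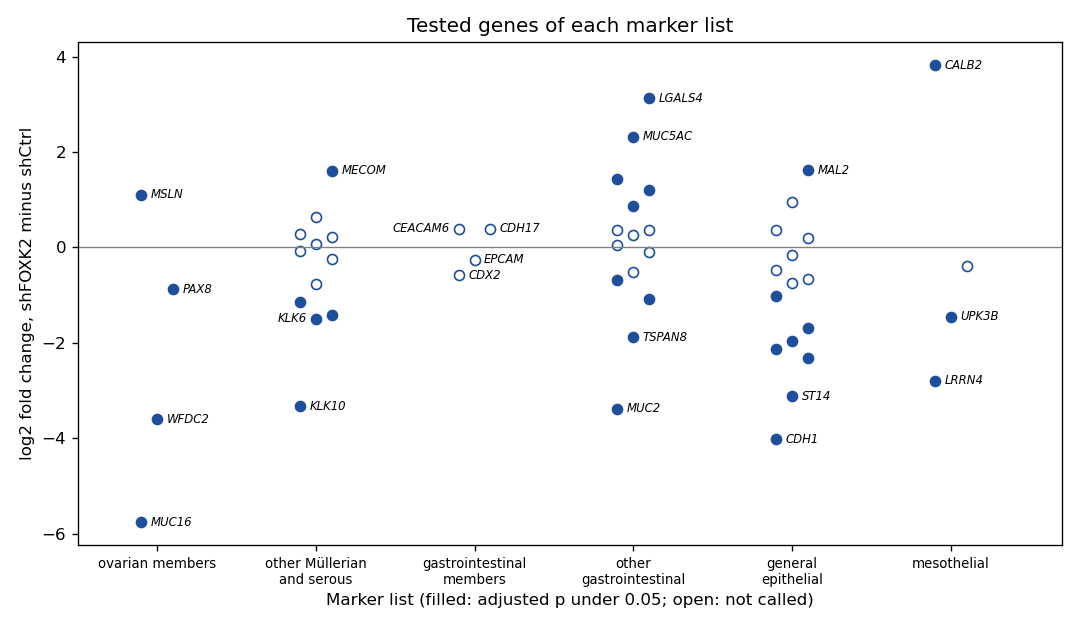
Log2 fold change, shFOXK2 minus shCtrl, of each tested gene in 6 marker lists; filled points passed an adjusted p of 0.05 and open points did not, and the points are spread sideways only to keep them apart. Called genes lie on both sides of 0 in the ovarian (1 of 4 higher), other Müllerian (1 of 5) and other gastrointestinal (5 of 9) lists. They also do in the general epithelial (1 of 8) and mesothelial (1 of 3) lists, while the 4 gastrointestinal members hold open points only. Of all tested genes, 48.4% were called.

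Markers of mesothelial, stromal, endothelial and blood cells were also read, since MSLN marks mesothelium too. All libraries came from a single cultured cell line, so these are transcripts of OVCAR5 cells. Of 10 mesothelial markers 4 could be tested, of which LRRN4 (110 and 78 counts against 16 and 6) and UPK3B (750 and 560 against 84 and 346) were lower (adjusted p = 0.00048 and 0.0103, edgeR) and CALB2, which encodes calretinin, was higher (79 and 52 against 385 and 1252, log2 fold change 3.82, adjusted p = 1.69e-05, edgeR). Over all tested genes, 22.7% were lower and 25.7% higher. The UPK3B call was lost with the GC content offset (adjusted p = 0.0603), the A content offset (adjusted p = 0.0675) or without shFOXK2 replicate 1 (-0.85, adjusted p = 0.0632), and the UPK3B estimate was -2.57 without shFOXK2 replicate 2. The summed level of the list was 20.1 and 20.4 CPM per kb in shCtrl and 22.5 and 57.2 CPM per kb in shFOXK2. This sum also follows single genes. UPK3B gave 14.9 and 15.5 CPM per kb of it in shCtrl, and CALB2 gave 18.6 and 47.3 in shFOXK2. ITLN1, PDPN and PRG4 had 0 counts in both shCtrl libraries. In shFOXK2, PRG4 had 4 and 19 counts, PDPN 0 and 1 and ITLN1 0 and 0, and UPK1B had 1 and 0 counts in shCtrl against 1 and 11. BNC1 went the other way, with 9 and 12 counts in shCtrl against 1 and 1 in shFOXK2. HAS1 had 11 and 5 counts in shCtrl against 6 and 11. None of these 6 genes entered the main test, and they were named after their values were seen. Of 12 stromal, endothelial and blood cell markers, 5 had 0 counts in both shCtrl libraries. PTPRC, CD3E, CD68 and DCN were among them, named after their values were seen. In shFOXK2, PTPRC and CD68 each had 3 and 0 counts, DCN 0 and 3 and CD3E 0 and 1. Others were counted in shCtrl. COL1A1 had 324 and 215 counts there against 226 and 229 in shFOXK2, and PECAM1 154 and 90 against 9 and 29. PDGFRB had 127 and 87 against 2 and 8, and CDH5 76 and 33 against 0 and 0. The summed level was 5.43 and 4.58 CPM per kb in shCtrl and 3.11 and 2.63 CPM per kb in shFOXK2. Of this list 4 could be tested, with 3 lower (CDH5, PDGFRB and PECAM1) and 0 higher by edgeR and by DESeq2, and 0 higher at an unadjusted p under 0.05 (edgeR). The same shares of 22.7% lower and 25.7% higher among all tested genes stand beside these counts. How the changes in these lists relate to that of MSLN was not tested.

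The genes whose profiles over the 4 libraries lay nearest to WFDC2 and EPCAM were sought among 10037 tested genes, by the distance between centered log2 values (0.5 CPM added). Nearest to WFDC2 were JUP, FUCA1 and PINK1, at distances of 0.188, 0.195 and 0.228 log2 units, and 24 genes lay within 0.5. JUP, which encodes plakoglobin, had 337 and 388 CPM in shCtrl and 22.1 and 32.2 CPM in shFOXK2. Nearest to EPCAM were NUDT5, GOLM1 and SUCLG2, at 0.0187, 0.0512 and 0.0561, and 2377 genes lay within 0.5. With 4 libraries in 2 groups, such distances mostly compare the size of the difference between groups.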

How the data were processed

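Polyadenylated RNA from OVCAR5 cells was sequenced as single-end reads of 50 bases. Per the study's methods and processing notes, reads were aligned to hg38 with STAR 2.5.2 and counted per gene with HTSeq. The deposited values are raw counts per gene symbol, 1 table for each library, and the authors applied no normalization to them. The counting annotation and strand setting are not given in the sources used here.

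Groups and replicate numbers came from the sample titles. Genes that passed filterByExpr were scaled with TMM factors and compared in R 4.3.3 with edgeR 4.0.16 (quasi-likelihood F test, 2-sided). P-values were adjusted by Benjamini and Hochberg's method across the whole table of 16417 tested genes, and genes under 0.05 were called. The standard error is the size of a log2 fold change over the square root of F. Transcript lengths and positions came from the GENCODE v44 canonical transcripts, which matched 36901 of 56655 symbols (65.1%) and every gene of the lists. Base composition offsets were fitted by lowess (span 0.2).

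The members and lists were chosen with earlier results of these data known. Apart from the 10 members, FOXK2 and the 3 nearest profiles, the text names from each list up to 4 genes with the highest level in shCtrl, the 2 largest called rises and the 2 largest called falls. Genes outside this rule are said to be so or are antisense partners, paralogs or undetected markers. Replicates differed by more than sampling noise (chi-square per gene 38.1 in shCtrl and 27.9 in shFOXK2). Alternatives were DESeq2 1.42.0 (size factors and Wald test), library size alone, other filters, the offsets, a replicate block, other lengths and leaving out each library. A few genes of the lists are counted in them but are not reported here by name.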

Additional observations from a re-analysis of the deposited data

How the results depend on the processing

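Of 79 log2 fold changes of the tested markers under other settings that kept all 4 libraries, 76 kept both sign and call, 3 (PAX8 with a base composition offset) lost the call and 0 changed sign. With 1 library left out, 27 of 32 kept both, 4 lost the call and 1 changed sign: CEACAM6, which ranged from -0.025 to 0.70. The number of markers called higher ranged from 0 to 1 with 1 library left out. With the merged exon length, the ovarian sum in shCtrl was 1.88 times the gastrointestinal sum, against 2.86 with the canonical length (both from mean levels). MUC16 could not be tested when 10 counts were required in each library. The number of all genes called ranged from 6008 under that filter to 9207 without a filter, and DESeq2 called 7063. Relative to the TMM fit, the median log2 fold change of all genes moved by 0.17 with the A content offset, by 0.12 with the GC content offset and by -0.10 without a filter. The filter moved the mesothelial calls in both directions: without it 3 were higher and 3 lower, against 1 and 2 with it. Among the lists, the counts called moved for Müllerian markers (4 to 2 lower with DESeq2, the offsets, 10 required counts or without shCtrl replicate 2), gastrointestinal markers (5 to 3 higher with the A content offset, 4 to 2 lower with 10 required counts), epithelial markers (1 to 3 higher with either offset, 7 to 9 lower without a filter or without shCtrl replicate 1), mesothelial markers (2 to 1 lower with either offset, with 10 required counts or without shFOXK2 replicate 1, and 1 to 3 higher without a filter) and stromal markers (3 to 0 lower with 10 required counts, where 1 gene could be tested).

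With a replicate block, 7270 genes were called, with 1 marker higher and 3 lower, so the block changed no call of a marker. The correlation of deviations between libraries of the same replicate number was -0.113. The labels do not say what the replicate numbers share, and this value alone cannot decide whether the libraries were paired. A crossed pairing, added after seeing the data, called 8350 genes. Levels near the floor of 3 counts, those of WT1 and VIL1, limit any reading of these genes to their detection.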

Other observations

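Relatives of the markers, chosen by gene family, were read beside them. Of 15 relatives, 8 could be tested, of which 6 were lower in shFOXK2 and 0 were higher by edgeR (median log2 fold change -1.49), with 0 higher at an unadjusted p under 0.05, 5 lower and 0 higher by DESeq2, and 1 higher with either base composition offset. Among all tested genes, 22.7% were lower and 25.7% higher by edgeR. The membrane mucin gene MUC1 had 688 and 486 counts in the shCtrl libraries against 56 and 92 in those of shFOXK2 and fell by 2.76 on the log2 scale (SE 0.30, adjusted p = 1.74e-05, edgeR quasi-likelihood test). SLPI, which encodes a secreted protease inhibitor with the same type of domain as WFDC2, had 1164 and 1098 counts against 218 and 159 and fell by 2.33 (SE 0.32, adjusted p = 7.99e-05, edgeR). CEACAM1 had 1188 and 913 counts against 180 and 588 and fell by 1.29 (SE 0.36, adjusted p = 0.00952, edgeR), a call lost without shFOXK2 replicate 1 (-0.77, adjusted p = 0.0882), with an estimate of -2.16 without shFOXK2 replicate 2. CEACAM5, whose protein is the carcinoembryonic antigen CEA used as a serum marker of colorectal cancer, was counted 3 and 3 times with shCtrl and 1 and 0 times with shFOXK2, and was named after its values were seen. Short reads that fit CEACAM1, CEACAM5 and CEACAM6 equally well could have been lost from all of them.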
